A study of Mus musculus with 16 samples.

Results

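Amino acid transporters of 6 solute carrier families, Slc1a, Slc3a, Slc7a, Slc36a, Slc38a and Slc43a, were followed in the ventricles of mice whose heart muscle cells lack Rbpms. The members are the rows of the count table whose gene symbol begins with one of these family names, 45 of 54108 rows with a symbol. Of the 45, 3 are opposite-strand genes named after a carrier. Of these 45, 30 reached a CPM (depth-scaled count) of 0.5 in at least 4 of the 8 libraries and are described here. The study removed Rbpms, which encodes an RNA-binding protein, with a floxed allele. The knockout (cKO) libraries come from mice of genotype Myh6-Cre, Rbpms fl/fl, and the control libraries from mice of genotype Rbpms fl/fl without Cre. All were heart ventricles taken at 8 weeks of age, 4 libraries per genotype, each with 3 males and 1 female (library 3 in both). The Myh6 promoter drives Cre in heart muscle cells, so other ventricular cells keep the gene, and the controls carry the floxed alleles but no Cre. Pooling of tissue is not mentioned in the labels; p-values therefore cover only library-to-library spread, which may be partly technical. The newborn libraries of the series were not analysed here.

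Solute carriers move amino acids across the plasma membrane and the membranes of lysosomes. Slc1a proteins take up glutamate or exchange small neutral amino acids. Slc7a proteins carry cationic amino acids, or pair with a glycoprotein of the Slc3a family to exchange large neutral ones. Slc36a proteins carry small amino acids together with protons, Slc38a proteins carry glutamine and other neutral amino acids together with sodium, and Slc43a proteins are facilitators of large neutral amino acids or nucleobases. In the heart, amino acids serve as fuel, feed the tricarboxylic acid cycle through glutamate, and report nutrient supply to the growth regulator mTORC1.

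Totals per library ran from 20190334 to 24540433 counts. Rbpms itself, the targeted gene, had 38.8, 34.5, 27.1 and 26.9 CPM in cKO libraries 1 to 4, against 191, 154, 193 and 102 CPM in control libraries 1 to 4, a log2 fold change of -2.33 (SE 0.20, adjusted p = 3.54e-05). No library went against its label. Mitochondrially encoded genes took 11.8% of counts in control library 4 and 8.04% to 10.1% elsewhere. The list of cardiomyocyte markers was abundant in all libraries, with summed levels of 24725 to 29875 CPM in cKO and 29540 to 38801 CPM in control libraries, and 2 of its 6 genes fell (Tnni3 and Ryr2). No marker list had a gene at 0 in all libraries. All 8 fibroblast markers rose (3865 to 4124 CPM summed in cKO, against 2002 to 2601 CPM in control libraries). Macrophage markers rose in 2 of 8, Mrc1 and Cd163 (241 to 286 CPM in cKO, against 152 to 236 CPM in control libraries). The Schwann cell marker Cdh19 also rose, with a log2 fold change of 0.87 (adjusted p = 0.0069). Of 8 smooth muscle and pericyte markers 1 rose (Cspg4) and 2 fell (Kcnj8 and Abcc9), while Myh11, Acta2, Tagln, Rgs5 and Pdgfrb did not pass. The list summed to 1823 to 2161 CPM in cKO, against 2378 to 2722 CPM in control libraries. Much of that gap was Abcc9, at 474 to 518 CPM in cKO and 889 to 1186 CPM in control libraries. Rgs5 had 968 to 1115 CPM in cKO and 887 to 1143 CPM in control libraries. Of 8 endothelial markers 0 passed in either direction by edgeR's quasi-likelihood test, with 0 at an unadjusted p under 0.05 and 0 by DESeq2 or limma-voom. Averages below are means ± SD over 4 libraries per genotype. In bulk tissue, fewer cells of a type and less RNA per cell cannot be told apart.

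Among the 30 described members, cKO ventricles had 5 that rose and 3 that fell at an adjusted p under 0.05 (edgeR's quasi-likelihood test, Benjamini-Hochberg adjustment over all 16051 genes tested). Those that rose were Slc1a3, Slc38a4, Slc38a2, Slc1a5 and Slc7a6, and those that fell were Slc36a2, Slc7a4 and Slc38a3. These 8 are 26.7% of the described members, beside 19.3% of all genes tested. The members that rose are 16.7%, beside 9.64% of all genes, and those that fell are 3 of 30, beside 9.64% of all genes. The median log2 fold change was 0.05 over the described members and 0.01 over all genes. For 9 of the 30 members every cKO library lay on one side of every control library, beside 23.5% of all genes; these were the 8 above and Slc1a4. In the male libraries alone 3 members rose (Slc1a3, Slc38a4 and Slc1a5) and 2 fell (Slc36a2 and Slc38a3). That fit had only 3 libraries per genotype. The share of all genes that passed in it is not given here, so a loss particular to the members cannot be read from these counts.

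**Figure D1:**
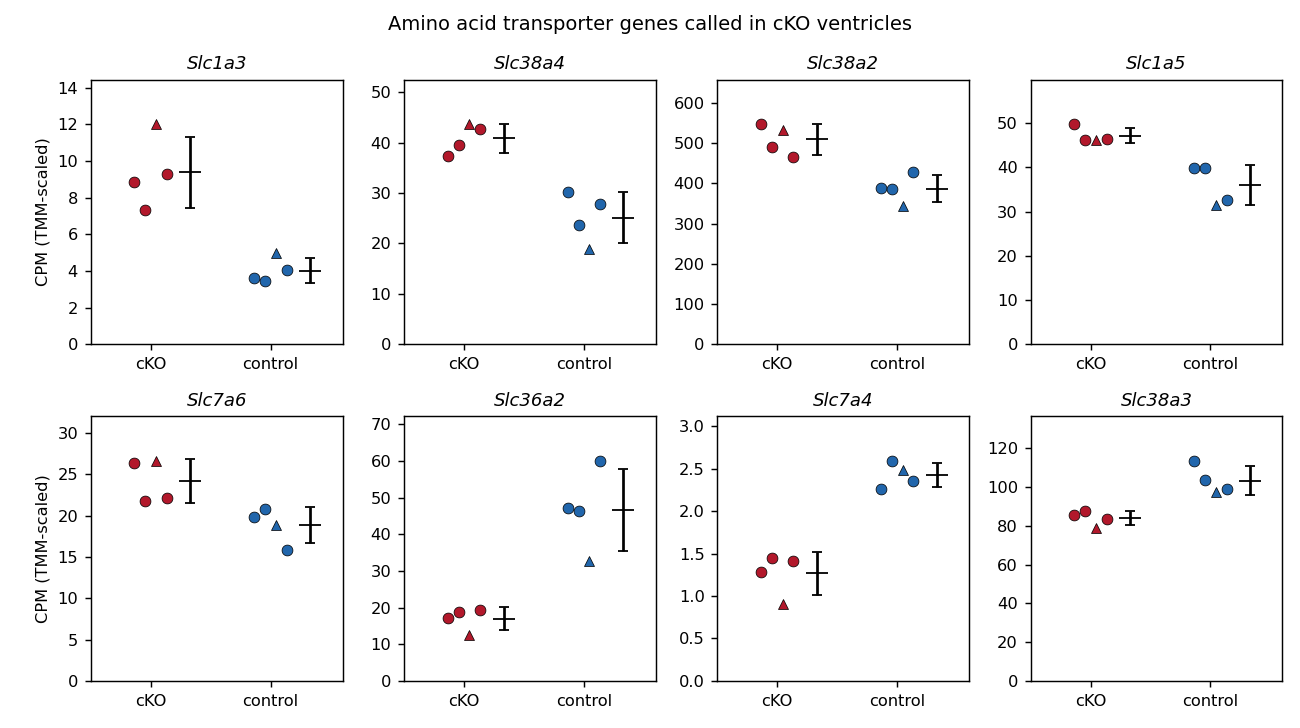
CPM in each library of the 8 members that passed the threshold, cKO left of control, with the 5 that rose first and the 3 that fell after them. Circles are males, triangles the female library of each genotype, and bars give the mean ± SD of 4 libraries; in each panel the 2 groups do not overlap, with Slc36a2 at 12.6 to 19.5 CPM in cKO and 32.8 to 60.1 CPM in control libraries.

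**Figure D2:**
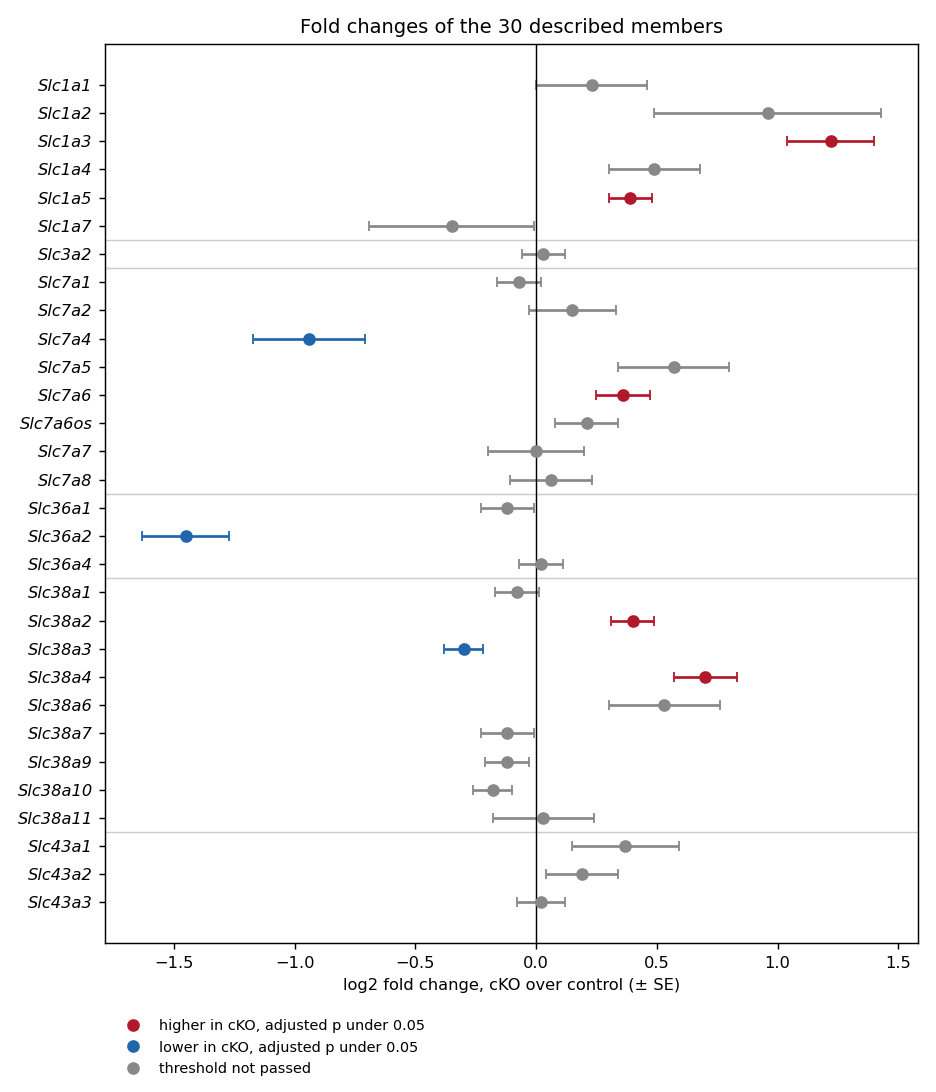
Log2 fold change (cKO over control) with its standard error for each of the 30 described members, ordered by family from Slc1a at the top to Slc43a at the bottom. Slc1a3 lies farthest to the right at 1.22 and Slc36a2 farthest to the left at -1.45, while the 22 members drawn in grey, between -0.35 and 0.96, missed the threshold.

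The largest fall was in Slc36a2, which encodes the proton-coupled carrier PAT2 for glycine, alanine and proline (chromosome 11, 55158470 to 55185077 in GRCm38, minus strand, ENSMUSG00000020264.5). It had 17.2, 18.9, 12.6 and 19.5 CPM in cKO libraries 1 to 4, against 47.3, 46.5, 32.8 and 60.1 CPM in control libraries 1 to 4. Every cKO library lay below every control library, and the female library was the lowest of each genotype. The level was 2.74-fold lower in cKO ventricles (log2 fold change -1.45, SE 0.18, adjusted p = 0.000278). It passed under each of the 16 alternative settings, with log2 fold changes from -1.60 to -1.31. Per exon length it averaged 5.23 ± 0.957 FPKM in cKO and 14.3 ± 3.44 FPKM in control ventricles.

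The related proton-coupled genes did not pass. Slc36a1, the PAT1 carrier of the plasma membrane and lysosome, averaged 18.9 ± 0.734 CPM in cKO and 20.6 ± 3.17 CPM in control ventricles, a log2 fold change of -0.12 (adjusted p = 0.499) with a 95% interval of -0.37 to 0.12. Slc36a4, a lysosomal family member, averaged 28.7 ± 1.69 CPM in cKO and 28.3 ± 2.74 CPM in control ventricles, with 0.02 (adjusted p = 0.895) and an interval of -0.17 to 0.22. Slc36a3 had no count in any library. Slc36a1 and Slc36a2 lie side by side on chromosome 11, 19.3 kb apart and on opposite strands. The log2 ratio of Slc36a2 to Slc36a1 CPM was -0.17 ± 0.29 in cKO and 1.16 ± 0.33 in control libraries (SD, n = 4 each), a difference of -1.33 (two-sided exact permutation p = 0.0286, the smallest that 4 against 4 libraries can give; 0.0429 adjusted over 3 such pairs). The pairs were chosen after the values were seen, and the adjustment does not cover that choice. Slc36a2 is also known from brown fat, and the 4 adipocyte markers summed to 2.33 to 17.1 CPM in cKO and 1.36 to 6.86 CPM in control libraries (median log2 fold change 1.27 over the 3 tested). None of the 3 passed by edgeR's quasi-likelihood test (adjusted p = 0.226 for Adipoq, 0.174 for Plin1 and 0.28 for Cidec). Each was highest in cKO library 4.

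Of 9 described Slc38a genes, the sodium-coupled neutral carriers, 2 rose and 1 fell, beside 9.64% of all genes in each direction. Slc38a2 encodes SNAT2, a plasma membrane carrier of glutamine, alanine and other small neutral amino acids that cells raise when amino acids run short. Per exon length it was the most abundant of the 30 members, at 57.6 ± 4.37 FPKM in cKO and 43.8 ± 3.89 FPKM in control ventricles. It had 548, 489.7, 534 and 465 CPM in cKO libraries 1 to 4, against 389.6, 386, 344 and 429 CPM in control libraries 1 to 4. All cKO libraries were above all control libraries, and control library 4 came closest to them. The rise was 1.32-fold, a log2 fold change of 0.40 (SE 0.09, adjusted p = 0.00864), and in males alone it was 0.32 and missed the threshold (adjusted p = 0.0543). Of the summed FPKM of the 30 members, Slc38a2 made up 27.3% ± 1.42 in cKO and 21.7% ± 0.647 in control ventricles (SD, n = 4 each).

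Slc38a4 encodes SNAT4, a relative of SNAT2 that is imprinted in the mouse. It had 37.4, 39.6, 43.8 and 42.8 CPM in cKO libraries 1 to 4, against 30.2, 23.7, 18.9 and 27.9 CPM in control libraries 1 to 4. The lowest cKO library stood above the highest control library, and the female libraries were the highest cKO and the lowest control value. The rise was 1.63-fold, a log2 fold change of 0.70 (SE 0.13, adjusted p = 0.00303), and it passed under all 16 alternative settings.

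Slc38a1, the SNAT1 carrier of the same transport system, averaged 87.2 ± 10.2 CPM in cKO and 92.2 ± 3.97 CPM in control ventricles, with a log2 fold change of -0.08 (adjusted p = 0.597) and a 95% interval of -0.28 to 0.12. These 3 genes are neighbours on chromosome 15 of GRCm38, all on the minus strand: Slc38a1 at 96571418 to 96642913, Slc38a2 at 96687392 to 96699730 and Slc38a4 at 96994820 to 97055956, with gaps of 44.5 kb and 295.1 kb. The log2 ratio of Slc38a4 to Slc38a1 was -1.09 ± 0.19 in cKO and -1.90 ± 0.32 in control libraries (SD, n = 4 each), a difference of 0.81 (two-sided exact permutation p = 0.0286, 0.0429 adjusted over the 3 pairs). For Slc38a2 over Slc38a1 the ratio was 2.55 ± 0.21 in cKO and 2.07 ± 0.18 in control libraries, a difference of 0.48 that missed the threshold (exact permutation p = 0.0571, also 0.0571 adjusted). These pairs too were chosen after the values were seen, so their p-values add little to the tests of the single genes. The summed level of the 3 genes was 68.3 to 76.1 FPKM in cKO and 48.8 to 60.0 FPKM in control libraries, without overlap. Most of it was Slc38a2, at a mean of 57.6 of 72.3 FPKM in cKO and 43.8 of 55.0 FPKM in control ventricles.

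Slc38a3 encodes SNAT3, a glutamine, histidine and asparagine carrier known from liver, kidney and brain. It had 85.6, 87.5, 79.1 and 83.6 CPM in cKO libraries 1 to 4, against 114, 104, 97.3 and 98.7 CPM in control libraries 1 to 4. The cKO libraries were all lower than the control libraries, by a small margin. The fall was 1.23-fold, a log2 fold change of -0.30 (SE 0.08, adjusted p = 0.0162). Scaled by total counts alone it was -0.22 and missed the threshold (adjusted p = 0.0977).

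Among the other Slc38a genes, Slc38a10, whose substrates are less well known, had rank 3 of the 30 per exon length. It had 109, 115, 107 and 105 CPM in cKO libraries 1 to 4, against 121, 122, 113 and 137 CPM in control libraries 1 to 4. The highest cKO library exceeded the lowest control library, and the log2 fold change was -0.18 (adjusted p = 0.138). Slc38a7 and Slc38a9 encode a lysosomal glutamine carrier and the lysosomal arginine sensor that acts on mTORC1. Slc38a7 averaged 25.6 ± 2.21 CPM in cKO and 27.8 ± 3.96 CPM in control ventricles, and Slc38a9 30.04 ± 1.63 CPM in cKO and 32.6 ± 3.15 CPM in control ventricles. Their log2 fold changes were -0.12 (adjusted p = 0.523) and -0.12 (adjusted p = 0.411). Slc38a6 averaged 7.26 ± 1.18 CPM in cKO and 5.01 ± 1.71 CPM in control ventricles, a log2 fold change of 0.53 (adjusted p = 0.131); without control library 2 it passed, at 0.75 (adjusted p = 0.0333). Slc38a11 averaged 2.41 ± 0.206 CPM in cKO and 2.36 ± 0.504 CPM in control ventricles, with 0.03 (adjusted p = 0.944).

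The Slc1a family held the largest rise. Slc1a3 encodes the glutamate carrier EAAT1, or GLAST (chromosome 15, 8634124 to 8710764, minus strand, ENSMUSG00000005360.14). It had 8.86, 7.34, 12.0 and 9.28 CPM in cKO libraries 1 to 4, against 3.63, 3.43, 4.97 and 4.02 CPM in control libraries 1 to 4. All cKO libraries were above all control libraries, and the female library was the highest of each genotype. The rise was 2.33-fold, a log2 fold change of 1.22 (SE 0.18, adjusted p = 0.000827), and it passed under all 16 alternatives, with log2 fold changes from 1.08 to 1.34. Slc1a3 is a low-level gene in ventricle, at 1.10 ± 0.229 FPKM in cKO and 0.47 ± 0.0801 FPKM in control ventricles. It is also known as a gene of glial cells. Cdh19 and the fibroblast markers rose in the same libraries, with the values given above, and their part in the rise of Slc1a3 was not tested.

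The other glutamate carriers did not pass. Slc1a1, or EAAT3, averaged 5.61 ± 1.52 CPM in cKO and 4.81 ± 1.18 CPM in control ventricles, with 0.23 (adjusted p = 0.548); 31.9% of its exon length is shared with 4430402I18Rik on the other strand, which fell, with a log2 fold change of -1.04 (adjusted p = 0.000776), and the strand setting of the counting is not given in the sources used here. Slc1a2, or EAAT2, had 1.37, 1.14, 2.41 and 1.12 CPM in cKO libraries 1 to 4, against 0.272, 0.392, 1.39 and 1.05 CPM in control libraries 1 to 4, that is 6 to 61 reads per library. Its groups overlapped, with 0.96 (adjusted p = 0.192). It is the one described member that was below 0.5 CPM in some libraries, both of them controls. Slc1a7, or EAAT5, averaged 0.987 ± 0.381 CPM in cKO and 1.25 ± 0.283 CPM in control ventricles, a log2 fold change of -0.35 (adjusted p = 0.531).

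Slc1a5 encodes ASCT2, an exchanger of glutamine and other neutral amino acids. It had 49.8, 46.1, 46.3 and 46.5 CPM in cKO libraries 1 to 4, against 39.8, 39.9, 31.4 and 32.6 CPM in control libraries 1 to 4. The groups did not overlap, and the cKO libraries lay closer together than the control libraries. The rise was 1.31-fold, a log2 fold change of 0.39 (SE 0.09, adjusted p = 0.0123), and it passed under all 16 alternatives. Its relative Slc1a4, or ASCT1, averaged 4.19 ± 0.642 CPM in cKO and 2.98 ± 0.49 CPM in control ventricles with separate groups, but its log2 fold change of 0.49 missed the threshold (adjusted p = 0.0984, 95% interval 0.07 to 0.91).

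The promoters of Slc1a3, Slc38a2 and Slc38a4 are shown because each gene rose and all lie on one chromosome. Slc1a3 is far from the others there, and Slc38a1, beside Slc38a2, did not pass. Shared regulation was not tested. Each is the 250 bases before the RefSeq start (GRCm38.p6), 5′ to 3′ on the strand of the gene, and for Slc38a4 the most upstream of 3 starts. Of the 30 described members 22 had an entry. Slc7a6 also had one, with no match to the motifs below, and Slc1a5, Slc36a2, Slc7a4 and Slc38a3 were not matched. Capitals mark a match to TGACNNNGC, the core of the antioxidant response element.
Slc1a3, chr15:8710808-8711057, minus strand: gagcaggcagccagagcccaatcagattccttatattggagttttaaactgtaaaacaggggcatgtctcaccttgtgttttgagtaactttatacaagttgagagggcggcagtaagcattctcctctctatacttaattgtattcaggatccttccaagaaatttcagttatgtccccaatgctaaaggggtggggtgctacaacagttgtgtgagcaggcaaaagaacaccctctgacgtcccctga
Slc38a2, chr15:96699729-96699978, minus strand: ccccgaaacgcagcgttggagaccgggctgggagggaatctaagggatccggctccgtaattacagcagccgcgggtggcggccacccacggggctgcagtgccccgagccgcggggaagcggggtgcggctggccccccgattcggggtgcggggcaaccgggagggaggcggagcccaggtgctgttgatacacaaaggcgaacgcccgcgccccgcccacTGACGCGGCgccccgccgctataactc
Slc38a4, chr15:97055957-97056206, minus strand: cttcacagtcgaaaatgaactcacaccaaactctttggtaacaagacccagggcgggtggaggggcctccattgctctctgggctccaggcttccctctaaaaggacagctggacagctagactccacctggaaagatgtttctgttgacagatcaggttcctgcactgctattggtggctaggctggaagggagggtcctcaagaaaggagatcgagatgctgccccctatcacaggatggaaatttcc
Windows were searched on both strands for 3 motifs that did not overlap in any member. The share over all windows counts every start of a gene, while each member counts only its most upstream start. TGATGNAA, the core of the amino acid response element bound by ATF4, was found in 3.45% of all 32851 windows and in 1 of the 22 members, Slc7a7. CACGTG, the E-box at the core of the lysosomal CLEAR element, was in 6.02% of all windows and in 4 of the 22 members. These were Slc1a7, Slc36a1, Slc38a7 and Slc43a1, which all missed the threshold for expression. TGACNNNGC was in 10.2% of all windows and in 3 members, Slc38a2 (27 to 19 bases before the start), Slc43a1 and Slc7a1. A match describes letters in the window and does not show binding, and bases outside the windows were not searched.

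Of 8 described Slc7a genes 1 rose and 1 fell, near the 9.64% of all genes in each direction. Slc3a2, the CD98 heavy chain that carries several Slc7a light chains to the cell surface, had 33.7, 35.5, 42.7 and 35.3 CPM in cKO libraries 1 to 4, against 35.3, 36.1, 34.9 and 38.2 CPM in control libraries 1 to 4. The groups overlapped, and the female cKO library was the highest of all 8. Its log2 fold change was 0.03 (adjusted p = 0.875), with a 95% interval of -0.17 to 0.22. Slc3a1, the other heavy chain, had 25 counts in all cKO and 9 in all control libraries, and 26.5% of its exon length is shared with Prepl on the other strand.

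Among the light chains that pair with Slc3a2, Slc7a6 passed. It encodes an exchanger of cationic for neutral amino acids. It had 26.4, 21.7, 26.7 and 22.1 CPM in cKO libraries 1 to 4, against 19.9, 20.8, 18.9 and 15.8 CPM in control libraries 1 to 4. The groups were separate by less than 1 CPM. The rise was 1.28-fold, a log2 fold change of 0.36 (SE 0.11, adjusted p = 0.0398). It missed the threshold without control library 1, 3 or 4 or cKO library 1 or 3 (adjusted p = 0.0553, 0.0641, 0.0928, 0.116 and 0.11) and in males alone (0.142). Slc7a6os, a neighbour 2.0 kb away on the other strand that is no transporter, averaged 15.6 ± 0.916 CPM in cKO and 13.5 ± 2.22 CPM in control ventricles, a log2 fold change of 0.21 (adjusted p = 0.296).

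Slc7a5 encodes LAT1, the main importer of leucine and other large neutral amino acids in dividing cells. It had 11.01, 12.5, 13.5 and 8.90 CPM in cKO libraries 1 to 4, against 5.62, 6.37, 6.69 and 12.3 CPM in control libraries 1 to 4. Control library 4 was among the highest of all 8, and the other control libraries were below every cKO library. The log2 fold change was 0.57 (adjusted p = 0.114) with all libraries and 0.88 without control library 4 (adjusted p = 0.00504). It also passed with total counts as the only scaling (0.67, adjusted p = 0.0491) and without the filter on low counts (0.56, adjusted p = 0.0247). The light chains Slc7a7 and Slc7a8 did not pass. Slc7a7 averaged 4.12 ± 0.532 CPM in cKO and 4.11 ± 0.952 CPM in control ventricles, and Slc7a8 4.69 ± 0.688 CPM in cKO and 4.49 ± 0.64 CPM in control ventricles. Their log2 fold changes were 0.00 (adjusted p = 0.994) and 0.06 (adjusted p = 0.846). Of the exon length of Slc7a7, 7% is shared with Oxa1l on the other strand. Slc7a11, the cystine importer, did not reach the level for description, with 13 counts in all cKO and 20 in all control libraries.

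Of the cationic carriers, Slc7a1, or CAT1, an arginine and lysine importer, had 129.5, 136, 121 and 117 CPM in cKO libraries 1 to 4, against 149, 134, 117 and 129 CPM in control libraries 1 to 4. The groups overlapped, and the log2 fold change was -0.07 (adjusted p = 0.627) with a 95% interval of -0.27 to 0.12. Slc7a2, or CAT2, averaged 17.3 ± 2.59 CPM in cKO and 15.6 ± 4.10 CPM in control ventricles, a log2 fold change of 0.15 (adjusted p = 0.646). Of the exon length of Slc7a2, 6.95% is shared with Gm26584 on the other strand. Slc7a4, a relative of the cationic carriers whose substrate is not established, had 1.28, 1.45, 0.91 and 1.42 CPM in cKO libraries 1 to 4, against 2.27, 2.60, 2.48 and 2.35 CPM in control libraries 1 to 4. The groups were separate, at 23 to 59 reads per library. It fell 1.92-fold, a log2 fold change of -0.94 (SE 0.23, adjusted p = 0.0128), and in males alone it was -0.79 (adjusted p = 0.0571). Of its exon length, 13.3% is shared with P2rx6 on the other strand, whose log2 fold change was 0.31 (adjusted p = 0.342).

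The Slc43a genes did not pass. Slc43a3, which encodes a nucleobase transporter of this family, had rank 2 of the 30 per exon length, at 24.8 ± 2.96 FPKM in cKO and 24.4 ± 2.12 FPKM in control ventricles. It had 121, 122, 94.8 and 104 CPM in cKO libraries 1 to 4, against 99.96, 102, 118 and 116 CPM in control libraries 1 to 4. All control libraries lay within the range of the cKO libraries, with a log2 fold change of 0.02 (adjusted p = 0.923) and a 95% interval of -0.20 to 0.24. Slc43a1 and Slc43a2, the leucine facilitators LAT3 and LAT4, had log2 fold changes of 0.37 (adjusted p = 0.284) and 0.19 (adjusted p = 0.441). Slc43a1 averaged 4.99 ± 0.569 CPM in cKO and 3.85 ± 1.25 CPM in control ventricles, and Slc43a2 51.1 ± 3.42 CPM in cKO and 44.8 ± 11.6 CPM in control ventricles. Of the exon length of Slc43a2, 9.18% is shared with Gm45606 on the other strand.

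**Figure D3:**
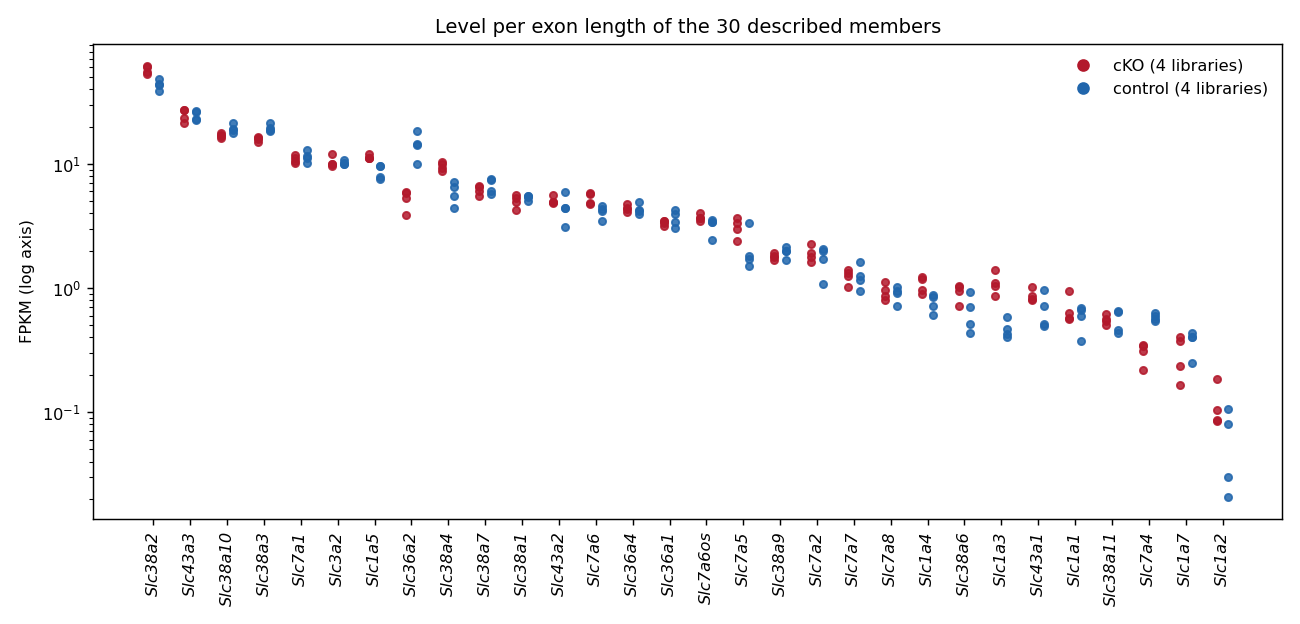
FPKM (CPM per kilobase of merged exons, log axis) in each library for the 30 described members, ordered by their mean over all 8 libraries, cKO in red left of control in blue. Slc38a2 leads in every library, and among the 8 highest members the control points of Slc36a2 and Slc38a3 lie above all their cKO points, with means of 5.23 FPKM in cKO and 14.3 FPKM in control ventricles for Slc36a2.

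Of the 15 members below the level for description, 3 had no count and the highest value in any library was 0.903 CPM. Slc38a5, the SNAT5 carrier, was the one that entered the test, with 57 counts in all cKO and 25 in all control libraries and a log2 fold change of 1.01 (adjusted p = 0.329). The rest had between 0 and 33 counts over the 4 libraries of a genotype.

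Of 14 enzymes of glutamine and glutamate metabolism, which use what these carriers bring in, 7 fell, beside 9.64% of all genes, and their median log2 fold change was -0.13, beside 0.01 for all genes. By edgeR's quasi-likelihood test 0 rose (1 at an unadjusted p under 0.05, 1 by DESeq2 and 0 by limma-voom). Got1, the cytosolic aspartate aminotransferase, had 404, 405, 371 and 369.9 CPM in cKO libraries 1 to 4, against 689, 670.5, 910.4 and 772 CPM in control libraries 1 to 4, without overlap. It was 1.96-fold lower in cKO ventricles (log2 fold change -0.97, SE 0.10, adjusted p = 0.000107). Gpt2, an alanine aminotransferase of mitochondria, averaged 37.3 ± 4.82 CPM in cKO and 61.7 ± 4.82 CPM in control ventricles, a log2 fold change of -0.72 (SE 0.10, adjusted p = 0.000575). Oat, which makes glutamate semialdehyde from ornithine, and Got2, the mitochondrial aspartate aminotransferase, had -0.58 (SE 0.09, adjusted p = 0.0013) and -0.45 (SE 0.10, adjusted p = 0.00934). Glud1, Gpt and Prodh fell with log2 fold changes of -0.29, -0.52 and -0.46. Without control library 1, 3 or 4 or cKO library 3 or 4 Prodh missed the threshold, and without cKO library 1 so did Gpt. Glud1 and Prodh missed it in males alone (adjusted p = 0.0769 and 0.138). Without any 1 library, 6 or 7 of the list fell, and 5 did in males alone or with total counts as the only scaling, where Glud1 and Prodh missed the threshold (adjusted p = 0.0734 and 0.0605 with total counts). Cardiomyocyte markers fell in 2 of 6 in the same libraries, and their part in this was not tested.

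Among 16 amino acid carriers of other solute carrier families that were tested, 3 fell and 1 rose, beside 9.64% of all genes in each direction, with a median log2 fold change of -0.02, beside 0.01 for all genes. Slc25a13, a mitochondrial aspartate and glutamate carrier, had 148, 142, 137 and 161 CPM in cKO libraries 1 to 4, against 270.2, 259, 302 and 283 CPM in control libraries 1 to 4. It was 1.90-fold lower in cKO without overlap, a log2 fold change of -0.92 (SE 0.08, adjusted p = 4.06e-05). Its relative Slc25a12 averaged 244 ± 16.9 CPM in cKO and 289 ± 34.3 CPM in control ventricles. There the log2 fold change of -0.24 missed the threshold (adjusted p = 0.0943). Slc25a22, a mitochondrial glutamate carrier, averaged 35.0 ± 5.46 CPM in cKO and 51.1 ± 7.07 CPM in control ventricles, with -0.55 (SE 0.13, adjusted p = 0.0109). Slc6a17, a vesicular carrier of neutral amino acids in neurons, fell 3.15-fold and averaged 2.89 ± 0.561 CPM in cKO and 9.10 ± 2.59 CPM in control ventricles, with -1.66 (SE 0.23, adjusted p = 0.000598). Slc6a7, a proline carrier, was the member that rose, with a low average of 1.14 ± 0.468 CPM in cKO and 0.176 ± 0.0793 CPM in control ventricles and a log2 fold change of 2.66 (SE 0.44, adjusted p = 0.00158). Without the filter on low counts 2 of these carriers rose, and with the stricter filter, which leaves out Slc6a7, 0 did.

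Of 33 genes of mTORC1, its regulators and its amino acid sensing, 5 fell, in small steps, beside 9.64% of all genes. Over the 33 the median log2 fold change was -0.13, beside 0.01 for all genes. By edgeR's quasi-likelihood test 0 rose (0 at an unadjusted p under 0.05, and 0 by DESeq2 or limma-voom). Fnip1, a partner of folliculin, averaged 109 ± 13.9 CPM in cKO and 147 ± 14.8 CPM in control ventricles, a log2 fold change of -0.43 (SE 0.11, adjusted p = 0.0136). The GTPase gene Rragd, the KICSTOR subunit gene Kptn and the Ragulator subunit gene Lamtor3 had -0.31 (adjusted p = 0.0152), -0.38 (adjusted p = 0.0177) and -0.28 (adjusted p = 0.0352), and the KICSTOR subunit gene Itfg2 had -0.46 (adjusted p = 0.037). The number that fell was 3 without control library 1, 3 without cKO library 2, 3 without cKO library 3 and 1 without cKO library 1. With total counts as the only scaling 0 fell, and in males alone 3 did.

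**Figure D4:**
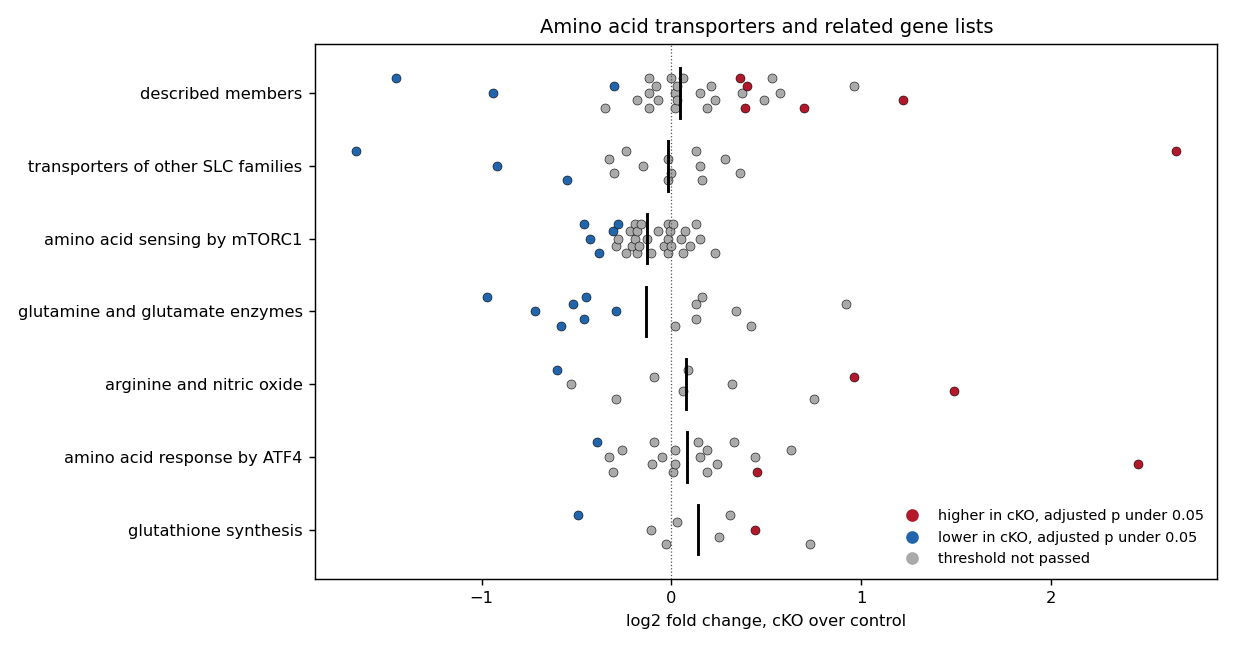
Log2 fold change (cKO over control) of each tested gene in the described members and in the 6 related lists, with a black bar at each median. The 7 blue points of the glutamine and glutamate enzymes lie between -0.97 and -0.29, while the described members have coloured points on both sides of 0.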

How the data were processed

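The stranded, paired-end libraries hold polyadenylated ventricular RNA, per the design text and the labels' protocols. Values are whole-number counts for each gene symbol, made and deposited by the authors. Tools named in the submitters' processing notes are HISAT2 2.0.4, featureCounts 1.6.0, FastQC 0.11.4 and edgeR 3.30.3, with builds mm10 and GRCm38. Which strand setting, annotation release and rule for multiply aligned reads they used is not given in the sources used here. Library columns were matched to sample labels by name (8 of 8). Rows with a number in place of a symbol (24 of 54132, 0.115% to 0.132% of counts) were left out.

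Groups were compared by quasi-likelihood in edgeR 4.0.16 (glmQLFTest) under R 4.3.3 and limma 3.58.1. Genotype alone was fitted after TMM scaling and the default filterByExpr filter, with two-sided p-values adjusted over 16051 genes. Each fold change divides cKO by control, and its standard error is |log2 fold change| over the root of the F statistic. CPM uses TMM-scaled totals, and FPKM is CPM over merged exon length (GENCODE M21, GRCm38). Total counts of 20190334 to 24540433 put 1 CPM at about 20 to 25 reads. On simulated counts of 16051 genes for this comparison the share recovered was 22% at a 1.3-fold change, 46% at 1.5-fold, 76% at 2-fold and 96% at 4-fold (50 genes at each size), with 8 false calls. The simulation changed far fewer genes than passed in the data and took the spread of each gene from a trend. Its shares therefore do not give the share recovered in the data. No 2 libraries of a genotype were alike (chi-square per degree of freedom 7.79 to 34.8).

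Members and lists were chosen with earlier results of these data known. Per-library values are given for Rbpms, the members that passed, the 8 with the highest FPKM and a few chosen after their values were seen. From each related list the 4 genes with the smallest adjusted p are named, with others where a count needed them, and Slc25a12 beside Slc25a13. Marker and related lists were short lists of textbook genes; part of the Schwann cell list is not reported here. Lymphocyte (3 of 6), red blood cell (3 of 4) and atrial markers (3 of 4) that could be tested did not pass; they summed to 1.67 to 7.60, 151.6 to 413 and 62.6 to 246 CPM in cKO and 2.35 to 3.58, 207 to 363 and 44.6 to 204 CPM in control libraries. Alternatives were DESeq2 1.42.0 size factors or total counts, no filter or a CPM of at least 1 in 4 libraries, the DESeq2 Wald test, limma-voom, sex as a covariate, males only and each library left out.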

Additional observations from a re-analysis of the deposited data

Results flagged for a closer look

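In 5 members a library lay far from the other 3 of its genotype, by the gap to its nearest neighbour over the range of the group; 60 groups were looked at, and chance marks about 1 in 20. Slc7a5 had 12.3 CPM in control library 4, against 5.62 to 6.69 CPM in the other controls, and Slc7a6os had 10.2 CPM there, against 14.5 to 14.9 CPM. Control library 4 also had the highest mitochondrial share of counts. Slc1a1 had 7.87 CPM in cKO library 3, a female, against 4.68 to 5.16 CPM in the other cKO libraries. Slc1a5 had 49.8 CPM in cKO library 1, against 46.1 to 46.5 CPM in the others. Slc43a2 had 56.2 CPM in cKO library 4, against 49.1 to 49.6 CPM in the others.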

How the results depend on the processing

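Slc36a2, Slc1a3, Slc38a4, Slc1a5 and Rbpms kept their direction and their side of the threshold under all 16 alternatives. The number of members that rose was 4 to 6 and the number that fell was 3 when any 1 library was left out, and 3 rose in males alone. Counts in males alone, for members and lists, rest on 3 libraries per genotype and have no share of all genes beside them. The number of all genes that passed was 2222 to 2870 with 1 library left out. With total counts as the only scaling, 1992 genes were higher and 1021 lower, against 1548 and 1547 with TMM, and 6 members rose and 2 fell. mTORC1 genes that fell numbered 0 with total counts, 3 in males alone and 1 to 5 with 1 library left out. The count of other carriers that rose was 2 without a filter and 0 with the stricter one, and 1 glutamate enzyme rose without a filter, with the DESeq2 Wald test and with sex as a covariate. In the arginine list 1 rose in males alone, and 2 fell without a filter, with DESeq2 or with sex as a covariate, and 0 to 2 with 1 library left out. In the ATF4 list 1 rose in males alone, 2 fell without a filter, 0 to 2 rose and 1 to 2 fell with 1 library left out. In the glutathione list 1 to 2 rose with 1 library left out.

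The members whose sign turned, named here, had all missed the threshold. Slc7a1 was at 0.01 and Slc38a1 at 0.0024 with total counts. Slc7a7 was at -0.00075 with DESeq2 size factors, -0.01 without a filter, -0.00083 with the Wald test and -0.02 in males, and Slc3a2 and Slc1a1 were at -0.07 and -0.14 in males. With 1 library left out the log2 fold change ran from -0.07 to 0.13 for Slc38a11, -0.03 to 0.09 for Slc43a3, -0.03 to 0.24 for Slc7a2, -0.11 to 0.16 for Slc7a7, -0.03 to 0.13 for Slc7a8, -0.02 to 0.08 for Slc36a4 and -0.05 to 0.07 for Slc3a2. The neighbour ratios cannot pass with 3 against 4 libraries, where the smallest exact permutation p is 0.0571; their differences were 0.67 to 0.90 for Slc38a4, 0.42 to 0.58 for Slc38a2 and -1.41 to -1.17 for Slc36a2. The cause of these shifts was not tested. Checks of the related lists and the neighbour ratios were added after seeing the data. No paired analysis was possible because the labels give no replicate numbers. In simulation, where far fewer genes changed than passed in the data, changes of 1.3-fold were recovered for 22% of genes.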

Other observations

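Of 10 tested genes of arginine and nitric oxide pathways, 2 rose and 1 fell, beside 9.64% of all genes in each direction. Over the 10 the median log2 fold change was 0.07, beside 0.01 for all genes. Asl, which releases arginine from argininosuccinate, had 9.52, 10.3, 11.1 and 8.77 CPM in cKO libraries 1 to 4, against 4.17, 4.56, 5.30 and 6.43 CPM in control libraries 1 to 4, without overlap. It was 1.94-fold higher in cKO ventricles (log2 fold change 0.96, SE 0.16, adjusted p = 0.00149). Nos1, the neuronal nitric oxide synthase, averaged 1.71 ± 0.529 CPM in cKO and 0.615 ± 0.251 CPM in control ventricles, with 1.49 (SE 0.36, adjusted p = 0.0128), and its adaptor gene Nos1ap fell, with -0.60 (adjusted p = 0.0204). In males alone Nos1 had 1.12 and missed the threshold (adjusted p = 0.0734). Nos1ap missed it without control library 1 (0.0522), cKO library 1 (0.0686) or cKO library 3 (0.0514). Nos2, an inducible synthase, had -0.53 (adjusted p = 0.0603); it passed without control library 3 (0.0157) or control library 4 (0.0401), when 2 of the list fell.

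Of 20 tested genes of the amino acid response, 2 rose and 1 fell, a share near the 9.64% of all genes for those that rose and below it for those that fell, with a median log2 fold change of 0.08, beside 0.01 for all genes. Atf4, its transcription factor, averaged 74.6 ± 6.43 CPM in cKO and 54.6 ± 10.96 CPM in control ventricles, with 0.45 (SE 0.13, adjusted p = 0.0361). Gdf15, a secreted stress factor, averaged 3.22 ± 2.26 CPM in cKO and 0.604 ± 0.705 CPM in control ventricles, with 2.46 (SE 0.72, adjusted p = 0.0326), and in males alone 1.56 (adjusted p = 0.154). Shmt2, a mitochondrial serine enzyme, fell, with -0.39 (SE 0.08, adjusted p = 0.00516). Cebpg, a partner of ATF4, had 0.24 (adjusted p = 0.0819). Atf4 missed the threshold without control library 1 or cKO library 1, 3 or 4 (0.0586, 0.0585, 0.0765 and 0.0904), and Gdf15 without control library 1, 2 or 3 or cKO library 1, 2 or 3 (0.0765, 0.0765, 0.068, 0.0568, 0.0553 and 0.102). The number that rose was 0 without control library 1 or cKO library 1 or 3, and 1 without control library 3 or cKO library 2 or 4, while 2 fell without control library 2.

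Glutathione synthesis uses glutamate and cystine that carriers supply. Of 8 genes of glutathione synthesis, recycling and regulation, 1 rose and 1 fell, near the 9.64% of all genes in each direction. Over the 8 the median log2 fold change was 0.14, beside 0.01 for all genes. Gsr, glutathione reductase, averaged 41.2 ± 1.80 CPM in cKO and 30.5 ± 3.62 CPM in control ventricles, with 0.44 (SE 0.09, adjusted p = 0.00683). Gclm, the modifier subunit of glutamate-cysteine ligase, averaged 34.9 ± 2.63 CPM in cKO and 49.0 ± 7.30 CPM in control ventricles, with -0.49 (SE 0.11, adjusted p = 0.00749). The catalytic subunit gene Gclc and the transferase gene Ggt7 had 0.31 (adjusted p = 0.0835) and 0.73 (adjusted p = 0.122). Without cKO library 2 Gclc passed (0.0469), and without control library 1 Ggt7 passed (0.0361), which made 2 that rose.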
